A study of Mus musculus with 2 samples.

Results

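Mir148a, Mir148b and Mir152 are the 3 microRNA loci of the miR-148 family in the mouse. The members were found by gene identifier in a table of 1973 miRNA loci, and all 3 had a row. MicroRNAs had been sequenced from total RNA of the whole forebrain of B6NCrl mice on postnatal day 0, with 1 single forebrain from pup 1 (replicate 1) and 1 from pup 3 (replicate 2). The labels give no genotype, treatment or sex for either pup, and both carry the same donor entry. The series therefore holds 1 group of 2 libraries, and the results are the level of each locus, its spread between the 2 pups, and the difference between these libraries (n = 2 throughout, mean ± SD).

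A miRNA is cut from the stem of a hairpin precursor and guides a repressor complex to messenger RNAs that pair with its seed, the stretch of bases 2 to 8. Loci that yield the same seed form a family and can act on overlapping sets of messages. The miR-148 family is known for repressing the message of the maintenance DNA methyltransferase Dnmt1, and miR-148a is known as an abundant miRNA of liver and of the lymphoid lineage. Mir148b and Mir152 are intronic to Copz1 and Copz2, which encode alternative zeta subunits of the coatomer, the coat of vesicles that return from the Golgi apparatus to the endoplasmic reticulum.

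The mature sequences of the 3′ arms, the arm for which the family is named, show what the loci share and where they part. They are printed 5′ to 3′ from RefSeq (GRCm38.p6), with the seed in capitals.
miR-148a-3p: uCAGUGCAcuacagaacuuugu
miR-148b-3p: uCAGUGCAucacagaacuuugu
miR-152-3p: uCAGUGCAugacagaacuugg
The seed CAGUGCA was the same in all 3, and of 1738 mature sequences in the RefSeq table these 3 alone held it at bases 2 to 8. Positions below are counted from 1 at the 5′ end. From miR-148a-3p to miR-148b-3p the differences were C9U and U10C, with 20 of 22 bases identical. From miR-148a-3p to miR-152-3p they were C9U, U10G and U20G over the 21 bases compared. From miR-148b-3p to miR-152-3p they were C10G and U20G. Any exact read of a 3′ arm that covers base 10 therefore tells the 3 miRNAs apart.

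The opposite arms were less alike, and their seeds split the family. They are shown because the deposited count of a locus holds reads of either arm, again with bases 2 to 8 in capitals.
miR-148a-5p: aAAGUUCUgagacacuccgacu
miR-148b-5p: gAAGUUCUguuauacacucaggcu
miR-152-5p: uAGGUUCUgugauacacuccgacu
Mir148a and Mir148b shared the seed AAGUUCU on this arm, and Mir152 had AGGUUCU. No other mature sequence in the table carried either of them at bases 2 to 8.

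The whole hairpins show where the arms lie, with both mature arms in capitals.
Mir148a: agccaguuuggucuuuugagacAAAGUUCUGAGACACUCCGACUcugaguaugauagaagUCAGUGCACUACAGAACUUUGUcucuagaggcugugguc
Mir148b: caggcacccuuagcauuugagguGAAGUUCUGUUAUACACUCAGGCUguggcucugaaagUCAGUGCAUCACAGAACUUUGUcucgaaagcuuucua
Mir152: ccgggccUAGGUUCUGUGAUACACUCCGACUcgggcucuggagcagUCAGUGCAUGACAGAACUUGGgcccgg
The Mir148a and Mir148b hairpins were of similar length, 99 and 97 nt, and both began their 3′ arm at base 61. The Mir152 hairpin was shorter, 73 nt, with a GC content of 61.6% against 45.5% in Mir148a and 45.4% in Mir148b. The longest run that any member shared with another of the 1004 other hairpins compared was 15 nt, between Mir148a and Mir148b, and the longest run of Mir152 was 12 nt. The first 18 bases of each of the 6 mature sequences occurred in the annotated transcripts of its own gene only, out of 141767 transcripts searched. Multimapping reads, 42.2% of the library of pup 1 and 44.1% of that of pup 3, were counted at no locus. No genome sequence was searched, so matches outside annotated transcripts were not tested.

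The 3 loci lie on 3 chromosomes in similar surroundings. Mir148a (ENSMUSG00000065505.1) lies at chr6:51269812-51269910 on the minus strand of GRCm38, and no annotated gene overlaps it. Mir148b (ENSMUSG00000065560.1) lies at chr15:103285125-103285221 on the plus strand, in intron 1 of Copz1. Mir152 (ENSMUSG00000065515.1) lies at chr11:96850393-96850465 on the plus strand, in intron 1 of Copz2. Genes of the Nfe2 family of basic leucine zipper factors stood beside each, with Nfe2l3 at 163 kb from Mir148a, Nfe2 at 26.7 kb from Mir148b and Nfe2l1 at 20.4 kb from Mir152. The heterochromatin protein genes Cbx3, Cbx5 and Cbx1 lay 200 kb, 45.3 kb and 41.8 kb from Mir148a, Mir148b and Mir152. The Nfe2 and Cbx genes were picked after the positions had been seen, so this is a description with no test. No other detected miRNA locus (at least 10 counts in both pups) lay nearer than 270.1 kb to any of the 3. For Mir152 the nearest one was Mir10a of the Hoxb cluster at 533 kb, and for Mir148b it was Mir615 of the Hoxc cluster at 270.1 kb. For Mir148a it was Mir490 at 14.8 Mb. Mir196b, a miRNA within a Hox cluster, lies nearer to Mir148a, at chr6:52230081-52230165. With 5 counts in pup 1 and 19 in pup 3 it missed the cut for detection.

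All 3 loci were detected in both forebrains, Mir148b and Mir148a at moderate and similar levels and Mir152 at a level several-fold below them. Counts on the strand of the gene were 771 in pup 1 and 549 in pup 3 for Mir148b, 670 and 499 for Mir148a, and 125 and 84 for Mir152. Pup 1 had the higher count at every member, and it also had the deeper library, with 2742746 gene-strand counts against 2427066 in pup 3. Scaled to a total of 1000000 such counts (CPM), and with exact 95% intervals by the method of Clopper and Pearson, Mir148b stood at 281 CPM in pup 1 (262 to 302) and 226 in pup 3 (208 to 246). Mir148a stood at 244 CPM in pup 1 (226 to 263) and 206 in pup 3 (188 to 224). Mir152 stood at 45.6 CPM in pup 1 (37.9 to 54.3) and 34.6 in pup 3 (27.6 to 42.8). The intervals of the 2 pups did not overlap at Mir148b and Mir148a, and did at Mir152. The share of all loci whose intervals did not overlap was not computed. For scale, 56.5% of the 400 tested loci differed between the pups by Fisher's exact test at an adjusted p under 0.05. The differences at Mir148b and Mir148a were not called on other scales, as given below. No molecular identifiers are named in the labels, so these intervals reflect the counting of reads alone.

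**Figure D1:**
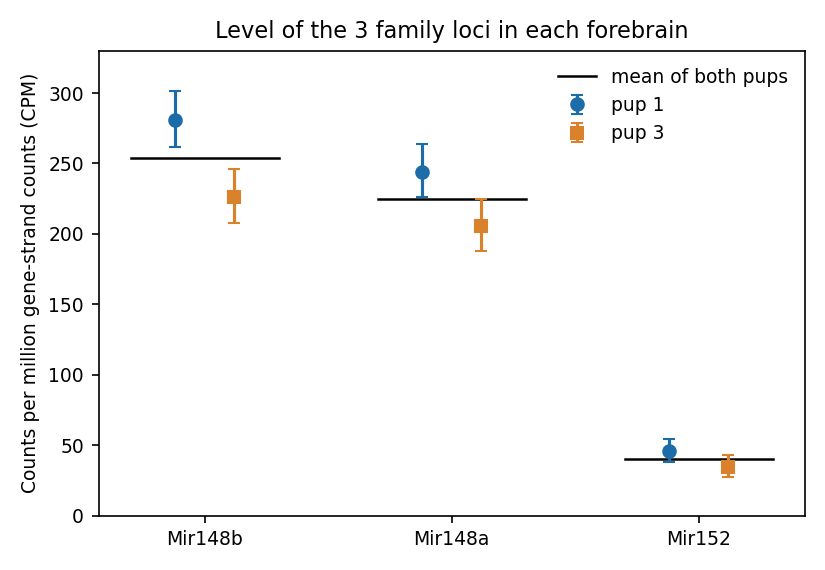
Level of each family locus in CPM (vertical axis) in pup 1 (circles) and pup 3 (squares). Error bars are 95% exact Clopper-Pearson intervals of counting error and horizontal lines are the means of both pups. Mir148b and Mir148a lie between 206 and 281 CPM, Mir152 between 34.6 and 45.6 CPM, and pup 1 is the higher of the 2 at each locus.

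Over both pups the order was Mir148b (254 ± 38.8 CPM), Mir148a (225 ± 27.4 CPM) and Mir152 (40.1 ± 7.75 CPM). The ranges of Mir148b and Mir148a over the pups overlapped, and Mir152 was below both by more than the spread between the pups. The family together held 571 CPM in pup 1 and 466 CPM in pup 3, which is 0.0519% ± 0.00739 of the counts. Reads on the opposite strand were 1 at Mir148b in pup 1 and 0 at the other members and in pup 3, so reads antisense to the loci did not bear on these values. Among all loci, Mir148b ranked 162, Mir148a 169 and Mir152 246. Of the 331 detected loci, 161 stood above Mir148b, and the median of the detected loci, 232 CPM, fell between Mir148b and Mir148a.

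**Figure D2:**
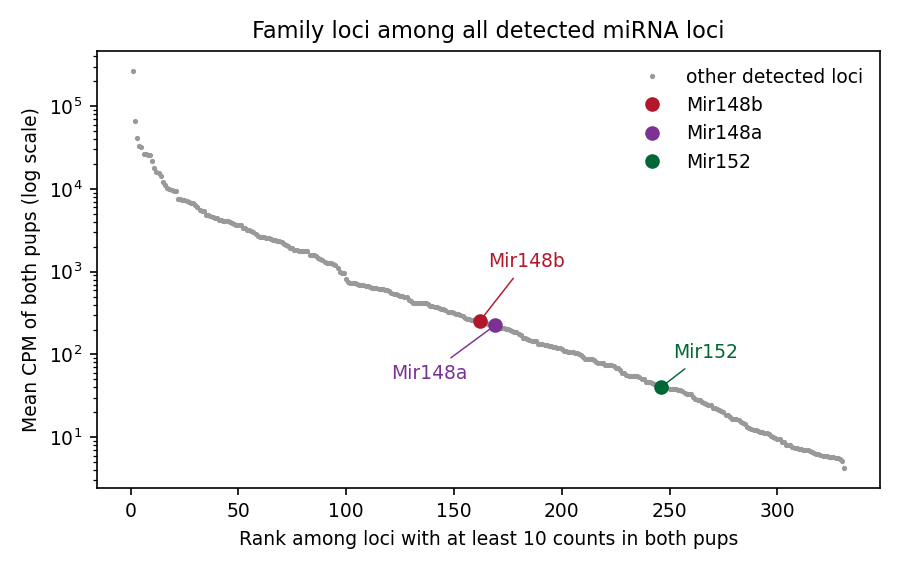
Mean CPM of both pups (vertical log axis) of the 331 loci with at least 10 counts in both pups, ordered by rank (horizontal axis), with the family in colour. Mir148b (254 CPM) and Mir148a (225 CPM) stand on either side of the middle of the detected loci, and Mir152 (40.1 CPM) stands in the lower part.

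Ratios between members within a pup do not depend on how the libraries are scaled. Mir148b exceeded Mir148a 1.15-fold in pup 1 (95% exact interval 1.04 to 1.28) and 1.10-fold in pup 3 (0.973 to 1.24), so its lead was larger than counting error in pup 1 but not in pup 3. Mir148a exceeded Mir152 5.36-fold in pup 1 (4.42 to 6.54) and 5.94-fold in pup 3 (4.71 to 7.58). Mir148b exceeded Mir152 6.17-fold in pup 1 (5.10 to 7.51) and 6.54-fold in pup 3 (5.19 to 8.32). Ligation and amplification favour some sequences over others, so these ratios are of reads, and their relation to molecules is unknown.

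The make-up of the family was nearly the same in the 2 pups. Mir148b gave 49.2% of the family's counts in pup 1 and 48.5% in pup 3, Mir148a 42.8% and 44.1%, and Mir152 7.98% and 7.42%. From pup 1 to pup 3 the ratio of Mir148a to Mir148b moved by 0.06 on the log2 scale (95% conditional exact interval −0.17 to 0.30). The ratio of Mir148a to Mir152 moved by 0.15 (−0.30 to 0.60) and that of Mir148b to Mir152 by 0.08 (−0.36 to 0.53). Each interval includes 0, and the widest still allows a shift of 0.60 between Mir148a and Mir152.

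Relative to library totals, Mir148b and Mir148a were lower in pup 3 than in pup 1, calls that were lost with TMM sizes and with size factors, where Mir148a changed sign. Mir152 did not pass the test on any of these scales. The log2 ratio of CPM + 1, pup 3 over pup 1, was −0.31 at Mir148b (95% interval −0.47 to −0.15), with an adjusted p of 0.00023. Mir148a had −0.25 (−0.42 to −0.08, adjusted p = 0.00729) and Mir152 had −0.39 (−0.81 to 0.01, adjusted p = 0.0859). The intervals are exact ones for the ratio of CPM without the added 1. The p-values are from two-sided Fisher's exact tests of a locus against the rest of its library. Benjamini-Hochberg adjustment was over the 400 loci with at least 10 summed counts. Each side is 1 library, so the test compares these 2 libraries and no conditions. Of the members, 2 of 3 were called lower and 0 higher. Over all tested loci 56.5% were called, 46.2% as lower and 10.2% as higher, and 76.5% had a log2 ratio below 0, so a lower value in pup 3 was common to most loci.

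Against that background the family moved with the bulk of the loci. The median log2 ratio of the 400 tested loci was −0.31, and the median of the 3 members was also −0.31. Mir148b lay 0.0019 above the median of all tested loci on the log2 scale, and 3 of the 400 were nearer to it. Mir148a lay 0.07 above the median (interval −0.10 to 0.23) and Mir152 lay 0.07 below it (−0.07, interval −0.50 to 0.33). None of the members reached a 1.5-fold difference between the pups, which 30.0% of the tested loci did.

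**Figure D3:**
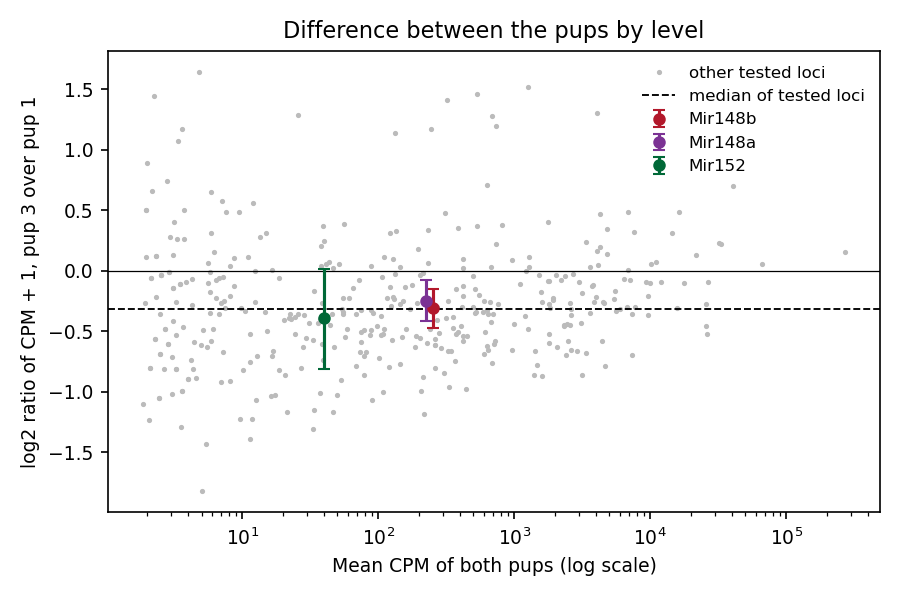
Log2 ratio of CPM + 1, pup 3 over pup 1 (vertical axis), against the mean CPM of both pups (horizontal log axis) for the 400 tested loci, with the family in colour and 95% intervals of counting error. The intervals are for the ratio of CPM without the added 1. The dashed line is the median of the tested loci, −0.31, and the intervals of all 3 members cross it.

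The sign of the difference at Mir148a depended on the scale. Mir99a alone held 25.5% of the counts of pup 1 and 28.4% of those of pup 3. With Mir99a left out of the totals the median of all tested loci moved from −0.31 to −0.26. The log2 ratios were then −0.19 at Mir148a (adjusted Fisher's exact p = 0.0483), −0.26 at Mir148b (0.00333) and −0.33 at Mir152 (0.16). With TMM library sizes the median of all tested loci moved from −0.31 to −0.08, Mir148a had 0.00, Mir148b −0.06 and Mir152 −0.14. With DESeq2 size factors the median moved to −0.02, Mir148a turned to 0.06, Mir148b had −0.00 and Mir152 −0.08. No member passed under either of these scales (exact binomial tests, adjusted p from 0.614 to 1 with TMM and from 0.625 to 1 with size factors), under which 46.5% and 45.2% of the tested loci did. With TMM sizes 26% of the tested loci were called lower and 20.5% higher, and with size factors 20.8% lower and 24.5% higher. The value at Mir148b with size factors is set by construction. DESeq2 takes the median ratio over loci counted in both libraries, and Mir148b was that median locus, with 263 of the 527 such loci below it and 263 above. A change of scale shifts every log2 ratio by nearly the same amount, so distances from the median of all tested loci are nearly fixed by construction. Mir148a stayed 0.07 to 0.08 above that median and Mir152 lay at −0.07 to −0.06.

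**Figure D4:**
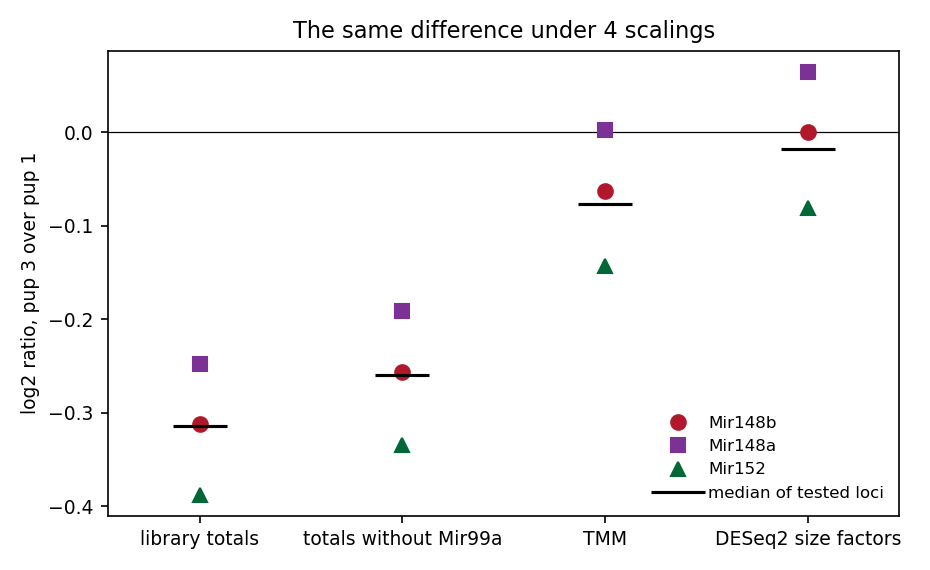
Log2 ratio, pup 3 over pup 1 (vertical axis), of the 3 family loci under 4 ways of scaling the libraries (horizontal axis), with the median of the tested loci as a bar. The 4 values shift together by about the same amount, which a change of scale brings about by construction. The shift is from −0.25 to 0.06 at Mir148a, −0.31 to −0.00 at Mir148b and −0.39 to −0.08 at Mir152.

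The loci most like each member were found by the distance between their log2(CPM + 1) values over the 2 pups, so likeness rests on 2 libraries. For Mir148b the nearest was Mir488 (280 and 222 CPM, distance 0.03), followed by Mir331 (298 and 242 CPM, 0.13) and Mir671 (310.3 and 233 CPM, 0.15). For Mir148a the nearest were Mir329 (214 and 211 CPM, 0.19), Mir496a (281 and 201 CPM, 0.20) and Mir488 (0.23). The first and second of these belong to the imprinted Dlk1-Dio3 region. For Mir152 they were Mir20b (42.3 and 35.0 CPM, 0.11), Mir19a (42.7 and 32.1 CPM, 0.14) and Mir451a (51.0 and 37.1 CPM, 0.19). Mir20b and Mir19a belong to the proliferation-linked cluster of Mir17 and its paralogs, and Mir451a is the miRNA of red blood cells.

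The miR-29 loci are also reported to act on messages of DNA methyltransferases (Dnmt3a and Dnmt3b). Of these, Mir29c (259 ± 100 CPM) stood at a mean level similar to that of Mir148b, and Mir29a (366 ± 131 CPM) at a higher one. Both had log2 ratios further from 0 than Mir148b and Mir148a. Mir29a had 458 CPM in pup 1 and 273 in pup 3, and Mir29c had 330.3 and 188 CPM. Mir29b-1, at 7.01 ± 3.50 CPM, and Mir29b-2, at 4.22 ± 0.729 CPM, were far below them. Multimapping reads were counted at no locus, so the values of such numbered copies can be too low, which was not tested. Of these 4 loci, 2 were lower in pup 3, a share close to the 46.2% of all tested loci called lower, 0 were higher and 2 missed the threshold. The list had a median log2 ratio of −0.78 against −0.31 over all tested loci. Mir29a (−0.75) and Mir29c (−0.81) were lower with TMM sizes and with size factors as well. Mir148b and Mir148a were called on neither scale, but the value of Mir148b with size factors is set by construction and could not have been called. Whether the 2 families differ in this was not tested.

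The miRNAs within the Hox clusters, which hold the nearest detected miRNA loci of Mir148b and Mir152, stood at levels from 0 to 135 CPM in the mean of both pups. The lowest were Mir196a-1, with 0 counts in both pups, and Mir196a-2, with 0 in pup 1 and 2 in pup 3. Multimapping reads were counted at no locus, so the values of such numbered copies can be too low, which was not tested. Mir10b had 120 CPM in pup 1 and 150.4 in pup 3, and Mir10a had 108 and 104 CPM. Of the 6 loci of this list, 4 were tested, 2 were higher (Mir10b at 0.33 and Mir196b at 1.64 from 5 and 19 counts), none lower and 2 did not pass. The median log2 ratio was 0.14, and Mir10b and Mir196b were higher with TMM sizes and with size factors as well. Over all tested loci 10.2% were called higher on totals, 20.5% with TMM sizes and 24.5% with size factors. Mir196b, Mir196a-1 and Mir196a-2 were named after their values were seen.

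Markers of the cell types that a forebrain sample could hold also differed between the pups. Their part in the values of the family was not tested. As background, 46.2% of all tested loci were called lower in pup 3 and 10.2% higher. With size factors 20.8% were called lower and 24.5% higher. Neuronal loci summed to 45093 CPM in pup 1 and 40531 in pup 3, led by Mir137 (25786 ± 3504 CPM) and Mir128-1 (11051 ± 405 CPM). All 8 were above 0, but the Mir124a copies, named after their values were seen, were low. Mir124a-1 had 15 counts in pup 1 and 21 in pup 3, Mir124a-2 had 5 and 4, and Mir124a-3 had 3 and 2. Multimapping reads were counted at no locus, so these copies and the neuronal sum can be too low, which was not tested. Of 6 tested, 2 were higher (Mir128-1 and Mir128-2) and 3 lower, and with size factors 3 were higher and 2 lower. Blood vessel and mesenchyme loci summed to 35086 and 39516 CPM, led by Mir126a (33045 ± 3575 CPM) and Mir143 (4003 ± 431 CPM). All 6 were above 0 in the sum of both pups, but the Mir199a copies, named after their values were seen, were near 0. Mir199a-1 had 1 count in pup 1 and 0 in pup 3, and Mir199a-2 had 8 and 7. As numbered copies they too can be too low, which was not tested. Of 5 tested, Mir126a was higher (0.22) and 2 were lower, Mir143 (−0.22) and Mir145a (−0.29), while with size factors 3 were higher and 0 lower. Choroid plexus and multiciliated loci fell from 11117 to 7193 CPM, with 4 of 4 lower in pup 3 and Mir449a (4676 ± 1763 CPM) and Mir204 (2602 ± 465 CPM) in the lead. With size factors 3 of these 4 were lower, without Mir204.

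Markers of digestive organs and of blood cells, among which are tissues known for miR-148a, summed to less than those of neurons and vessels. Liver, gut and pancreas loci summed to 674 CPM in pup 1 and 560.3 in pup 3, led by Mir375 (326 ± 39.7 CPM) and Mir192 (115 ± 12.7 CPM), and the liver miRNA Mir122 had 55.6 ± 10.5 CPM. In that list 4 of 6 tested loci were lower and 1 was higher, and with size factors 0 were lower and 1 was higher. Over all tested loci 46.2% were lower and 10.2% higher, and with size factors 20.8% were lower and 24.5% higher. White blood cell loci summed to 379 and 394 CPM, from Mir150 (196 ± 17.2 CPM), Mir223 (145 ± 1.88 CPM) and Mir155, with none of 3 passing the test. With size factors 2 of these 3 were higher. Mir142 has no row and is in neither sum. It lies opposite Mir142b, whose row held 558 counts on the other strand in pup 1 and 432 in pup 3 (203 and 178 CPM) and 0 on its own. Red blood cell loci summed to 88.2 and 71.3 CPM, led by Mir451a (44.1 ± 9.87 CPM) and Mir144 (22.3 ± 4.10 CPM), with 1 of 3 lower and none with size factors. In bulk tissue, fewer cells of a type and less RNA per cell cannot be told apart.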

How the data were processed

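For each library the authors deposited raw counts of reads by miRNA gene, not normalized, on assembly mm10 with GENCODE annotation M4, per the deposited text. The aligner and the counting tool: not given in the sources used here. Counts on the gene strand were used. The 4 rows that name no gene were left out of the totals, which came to 41.2% of 6657203 reads (pup 1) and 41.3% of 5883027 reads (pup 3). A count of 0 would allow up to 3 counts, or 1.09 CPM in pup 1 and 1.24 CPM in pup 3. Names and positions came from GENCODE M21 of GRCm38 (1894 of 1973 rows matched by identifier), and sequences from RefSeq, where all 3 members matched by symbol.

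The quasi-likelihood test of edgeR needs a contrast and the series has 1 group, so Fisher's exact test was used and was tested on simulated data. The p-values measure sampling of reads, not variation between animals. edgeR and DESeq2 gave size factors only. Alternatives were the unstranded column, other totals, scalings, filters and pseudocounts, and leaving out a replicate. Named loci are the 3 members, the 3 loci nearest to each, host and neighbouring genes (the nearest Hox genes are not reported here), and the 2 highest of each list; others are named as such or as background. The members and lists were chosen with earlier results of these data known. Tests ran in scipy 1.17.1 on Python 3.11.15 with pandas 2.3.3 and numpy 2.4.6, size factors in DESeq2 1.42.0 and edgeR 4.0.16 under R 4.3.3, and figures in matplotlib 3.10.9.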

Additional observations from a re-analysis of the deposited data

How the results depend on the processing

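Of 59 alternatives run over the levels, ratios and differences reported, 47 kept the direction, the side of the threshold or the value within the spread between the pups. This tally includes alternatives that could not have come out otherwise. With 2 pups, the value of either pup alone always lies within the SD of their mean. A change of pseudocount alters neither the p-value nor the sign. With Mir99a left out of the total the levels were 307 CPM (Mir148a), 347 CPM (Mir148b), 54.7 CPM (Mir152) and 709 CPM (family), and with all reads as the total 92.7, 105, 16.5 and 214 per 1000000 reads. With TMM sizes the log2 ratio of Mir148a was 0.00197 and that of Mir148b −0.0626. With DESeq2 size factors they were 0.0645 and −6.04e-10, the latter being 0 but for rounding, as the construction of the factors fixes it. Mir152 kept its sign and missed the threshold under the 8 alternatives run for it. Loci that differ between the pups numbered 226 with totals, 186 with TMM and 181 with size factors, and the share of them that was higher in pup 3 was 18.1%, 44.1% and 54.1%. Leaving out a replicate gave 206 to 244 CPM at Mir148a, 226 to 281 at Mir148b, 34.6 to 45.6 at Mir152 and 466 to 571 for the family. No paired analysis was possible because the series has a single group. At 84 to 125 counts, the depth of Mir152 leaves a wide interval on its difference.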

Other observations

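The letters of the family's seed also occur in other mature miRNAs of the brain, shifted along the sequence. A search of the RefSeq table, made with the values of the loci known, found CAGUGCA in 17 of 1738 mature sequences. Besides the 3 members, 7 held it at bases 1 to 7, which shifts it by 1 base and makes their own bases 2 to 8 AGUGCAA. The detected ones belong to the family of miR-130a and are printed with these letters in capitals.
miR-130a-3p: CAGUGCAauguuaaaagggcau
miR-130b-3p: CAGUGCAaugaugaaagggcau
miR-301a-3p: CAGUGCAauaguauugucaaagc
Mir130a stood at 17820 ± 865 CPM, Mir130b at 2034 ± 34.1 CPM and Mir301 at 1922 ± 228 CPM, each above the 519 ± 73.9 CPM of the whole miR-148 family. Of the other 4, Mir130c, Mir6341 and Mir6389 had no count in either pup and Mir721 had no matching row.

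The remaining 7 held the letters further in, outside their own seeds or overlapping them in part. Mir139, whose 5′ arm carries them at bases 5 to 11 (ucuaCAGUGCAcgugucuccag), stood at 6438 ± 224 CPM. Mir17 and Mir106b, which carry them at bases 12 to 18, stood at 10209 ± 294 and 4590 ± 596 CPM. Counts are per hairpin, so the arm that holds these letters was not measured on its own, and sharing letters says nothing of shared targets here.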
